A study of Mus musculus with 24 samples.

Results

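The genes described here are 39 genes of the type I interferon response, taken by symbol from the deposited gene count table of a mouse cortex study. Rows of that name were found for 38 of the 39 (the exception is Ifit3b) among 43346 genes in the table. Of these 38, 35 passed the filter on low counts and were tested among 19678 genes, and Zbp1, Oasl1 and Cxcl10 did not pass it. Type I interferons are secreted by virus-infected or otherwise alarmed cells and bind a receptor of the subunits Ifnar1 and Ifnar2, whose kinases Jak1 and Tyk2 phosphorylate STAT proteins, Stat2 among them. Phosphorylated Stat2 takes part with Irf9 in a complex, ISGF3, that binds interferon-stimulated response elements in the promoters of a broad set of antiviral genes. In the brain, microglia, astrocytes, endothelial cells and neurons all can respond, and a microglial state marked by these genes is known from aged and amyloid-bearing mice.

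The 24 mice were C57BL/6 animals with 1 Cx3cr1CreER allele and a homozygous TREM2 construct of the R47H or the WT form, and bulk RNA sequencing was run on their cortex, 1 library per mouse. TREM2 is a microglial receptor for lipids, and R47H is a variant linked to the risk of Alzheimer's disease. Cx3cr1CreER is a Cre recombinase that works only with tamoxifen and is driven by the Cx3cr1 promoter, which is active in microglia and in other macrophages and monocytes. The 4 groups of 6 mice were R47H_induced (TREM2-R47H+/+, tamoxifen), WT_induced (TREM2-WT+/+, tamoxifen), R47H_control (TREM2-R47H+/+, corn oil) and WT_control (TREM2-WT+/+, corn oil). Controls carried the construct and the Cre allele too, so R47H_control and WT_control differ in the form of an uninduced construct. Tamoxifen and induction differ together, since a tamoxifen group without Cre was not analysed here, and the labels used here do not give the age of the mice. The series text gives 3 males and 3 females per group, and in every group 3 libraries had more counts of Y-linked genes than of Xist.

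The total count of a library lay between 27933505 and 56082520 in R47H_induced, and between 33759496 and 46904559 in WT_induced. With corn oil it lay between 31025034 and 39902640 in R47H_control, and between 33742812 and 43961714 in WT_control. A level in CPM is a count divided by the TMM-scaled size of its library, and 3 CPM values in a row are the lowest, the median and the highest of the 6 libraries of a group. Markers of cortical excitatory neurons summed to between 3313 and 4237 CPM in every library, and mouse Trem2 ran from 5.4 to 9.32 CPM. A single library, WT_induced replicate 6, was far above the other 23 in nearly every gene described here, so values are given with and without it where a result rests on that group. The p-values measure the spread between libraries of different mice. The main fit shares that spread over all groups for each gene, so it is not the spread of the compared groups alone. The groups were unequal in this. The mean log2 CPM over the tested genes had a standard deviation of 0.74 in WT_induced, against 0.12 to 0.17 in the others.

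The interferon-stimulated response element was searched as GAAANNGAAA, or TTTCNNTTTC on the other strand, in promoter windows of 300 bases taken from RefSeq (GRCm38.p6), from 250 bases before a gene's start to 50 after it. Windows were found for 30 of the 39 genes, and 14 of them (46.7%) held a match, against 1079 of all 27025 genes (3.99%) with a window. The gamma-activated site, searched as TTCNNNGAA, which reads the same on both strands, was found in 7 of the 30 (23.3%), against 9.55% of all genes. A match is a description of the letters, and was not tested as a site of binding. The following 30 bases hold, in capitals, the match nearest a start that RefSeq gives the gene. They are printed for the genes with a row in the table and room around the match, to show the letters around the searched pattern in genes of different function. Each is read along the gene's own strand. For Trim30a that start lies inside the gene, in the window chr7:104446076-104446375, and not at the start in the deposited table.
Stat2, chr10:128270266-128270295 (+): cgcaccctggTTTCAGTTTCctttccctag
Ddx58, chr4:40239804-40239833 (-): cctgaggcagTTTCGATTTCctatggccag
Eif2ak2, chr17:78882535-78882564 (-): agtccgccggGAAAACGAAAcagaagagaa
Oas1a, chr5:120907520-120907549 (-): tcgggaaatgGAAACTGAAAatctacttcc
Ifit1, chr19:34640794-34640823 (+): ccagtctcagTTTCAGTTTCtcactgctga
Ifit3, chr19:34583397-34583426 (+): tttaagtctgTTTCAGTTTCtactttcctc
Isg15, chr4:156200865-156200894 (-): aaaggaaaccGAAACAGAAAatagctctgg
Rsad2, chr12:26456553-26456582 (-): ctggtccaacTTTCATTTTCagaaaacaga
Bst2, chr8:71537577-71537606 (-): ccaggaaaatGAAACTGAAAggctgcagtt
Ifitm3, chr7:141010723-141010752 (-): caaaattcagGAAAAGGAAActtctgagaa
Cxcl10, chr5:92349083-92349112 (-): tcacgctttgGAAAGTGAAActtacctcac
Trim30a, chr7:104446104-104446133 (-): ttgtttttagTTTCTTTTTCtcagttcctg

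Whole windows are printed for the 6 tested genes with the lowest p in R47H_induced against WT_induced that have one, so that promoters with and without a match can be read side by side. Capitals mark matches to the response element, and lower case runs through where there is none. The windows are Adar chr3:89714772-89715071 (+ strand), Helz2 chr2:181241978-181242277 (- strand), Trim25 chr11:88999153-88999452 (+ strand), Irf7 chr7:141266375-141266674 (- strand), Ifit1 chr19:34640639-34640938 (+ strand) and Ifit3 chr19:34583279-34583578 (+ strand). Adar has 3 windows in the table, none with a match, and the one printed is the window around the start that the deposited table gives the gene.
Adar: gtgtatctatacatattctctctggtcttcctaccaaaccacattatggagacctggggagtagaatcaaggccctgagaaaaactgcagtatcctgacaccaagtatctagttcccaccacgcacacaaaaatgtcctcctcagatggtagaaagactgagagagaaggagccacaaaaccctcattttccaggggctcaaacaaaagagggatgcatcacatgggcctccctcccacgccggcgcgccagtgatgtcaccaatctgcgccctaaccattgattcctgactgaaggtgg
Helz2: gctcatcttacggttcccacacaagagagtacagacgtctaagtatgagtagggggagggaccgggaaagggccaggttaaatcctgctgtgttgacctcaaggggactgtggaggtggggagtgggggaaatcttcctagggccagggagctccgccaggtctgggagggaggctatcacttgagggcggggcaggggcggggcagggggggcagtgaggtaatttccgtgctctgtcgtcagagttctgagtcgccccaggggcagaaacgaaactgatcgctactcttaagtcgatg
Trim25: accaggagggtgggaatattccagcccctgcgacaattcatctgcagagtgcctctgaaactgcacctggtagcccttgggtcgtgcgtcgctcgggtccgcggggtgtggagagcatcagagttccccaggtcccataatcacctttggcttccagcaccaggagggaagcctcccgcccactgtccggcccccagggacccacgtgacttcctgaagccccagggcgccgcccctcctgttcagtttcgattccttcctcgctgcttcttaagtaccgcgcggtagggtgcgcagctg
Irf7: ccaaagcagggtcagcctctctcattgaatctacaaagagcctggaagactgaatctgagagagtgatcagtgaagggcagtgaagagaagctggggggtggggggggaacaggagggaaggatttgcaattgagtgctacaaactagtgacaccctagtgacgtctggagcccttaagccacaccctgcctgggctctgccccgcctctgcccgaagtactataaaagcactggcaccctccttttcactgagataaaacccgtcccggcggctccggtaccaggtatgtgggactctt
Ifit1: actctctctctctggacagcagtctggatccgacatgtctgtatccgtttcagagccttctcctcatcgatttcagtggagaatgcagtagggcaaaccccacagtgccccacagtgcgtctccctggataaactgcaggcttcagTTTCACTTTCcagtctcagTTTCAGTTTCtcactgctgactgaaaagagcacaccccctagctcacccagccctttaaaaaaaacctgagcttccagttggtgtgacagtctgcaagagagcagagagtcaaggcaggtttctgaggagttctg
Ifit3: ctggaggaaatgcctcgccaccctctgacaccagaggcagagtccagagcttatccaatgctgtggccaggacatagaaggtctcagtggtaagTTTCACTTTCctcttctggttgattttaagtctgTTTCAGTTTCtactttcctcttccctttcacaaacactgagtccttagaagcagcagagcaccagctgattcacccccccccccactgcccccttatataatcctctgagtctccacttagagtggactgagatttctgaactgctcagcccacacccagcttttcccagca
Ifit1 and Ifit3 each held a pair of matches, which began at bases -104 and -85 of Ifit1 and at -156 and -122 of Ifit3 relative to the start. Adar, Helz2, Trim25 and Irf7 held none in these windows.

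The interferon response genes were highest in WT_induced, where the 6 mice differed widely. The other 3 groups spread less, and the median of WT_control lay above those of both R47H groups. The mean log2 CPM over the 35 tested genes ran from 1.32 to 1.64 in R47H_induced (median 1.43), against 1.51 to 3.52 in WT_induced (median 2.01). In the controls it ran from 1.29 to 1.72 in R47H_control (median 1.46), against 1.55 to 1.94 in WT_control (median 1.66). Within WT_induced, replicate 6 stood at 3.52, replicate 4 at 2.29, replicate 1 at 2.13, replicate 3 at 1.89, replicate 5 at 1.55 and replicate 2 at 1.51. Replicates 6, 4 and 1 thus lay above every library of the other 3 groups, while replicate 2 lay below every WT_control library and replicate 5 level with the lowest of them. The summed level of the 38 genes was 687 CPM in WT_induced replicate 6 and 308 to 413 CPM in the other 23 libraries.

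**Figure D1:**
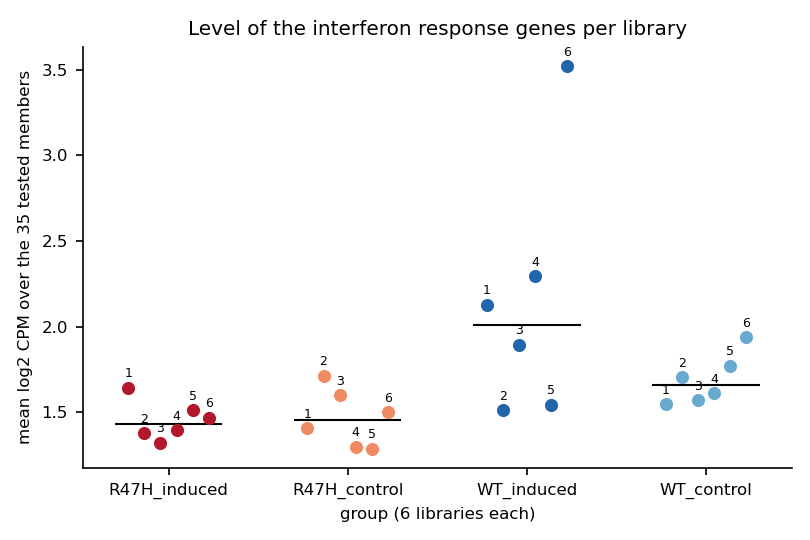
Mean log2 CPM over the 35 tested interferon response genes (vertical axis) for each of the 24 libraries (points), by group (horizontal axis), with a line at each group's median. WT_induced runs from 1.51 to 3.52, the other 3 groups from 1.29 to 1.94.

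The same library was the highest for nearly all the genes. WT_induced replicate 6 was the highest of 24 libraries in 37 of 38 genes, Adar being the exception. Among the other 23 libraries, WT_induced replicate 4 was the highest in 22 genes and WT_induced replicate 1 in 9. The median ratio of a gene's level to its WT_control median was 3.84 in replicate 6, 1.51 in replicate 4, 1.39 in replicate 1, 1.12 in replicate 3, 0.907 in replicate 5 and 0.877 in replicate 2 of WT_induced. Replicate 4 lay above every WT_control library in 31 of 38 genes, replicate 1 in 23, replicate 3 in 8, replicate 2 in 2 and replicate 5 in 1. The WT_induced mice thus spread over a wide range in these genes, and replicates 2 and 5 were the nearest to the controls.

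The rise in WT_induced replicate 6 differed in size from gene to gene. Its level was 53.8 times the median of the other 5 WT_induced libraries for Cxcl10, a chemokine that draws T cells, and 21.5 times for Zbp1, a sensor of Z-form nucleic acid. It was 8.93 times for Mx1, a dynamin-like antiviral GTPase whose protein is known to be defective in C57BL/6 mice. It was 1.83 times for Stat2 and Ifit2 and 0.989 times for Adar, the lowest ratios of the 38. Genes that look like ribosomal RNA, a mark of library quality, took 23% of the counts in replicate 6, against 20.3% in replicate 4, 19.8% in replicate 1, 16% in replicate 5, 15.9% in replicate 2 and 14.7% in replicate 3 of WT_induced. The 3 libraries with the highest levels of the interferon response genes in WT_induced were thus the 3 with the most such counts. Other groups did not show this order. WT_control replicate 6 had the highest mean log2 CPM of its group, 1.94, and the lowest share of all libraries, 11.5%. R47H_control replicate 1 had the highest share of all, 24.4%, and a mean of 1.41. The share ran from 15% to 19.5% in R47H_induced, from 17.1% to 24.4% in R47H_control and from 11.5% to 20.1% in WT_control. A fit with the share as a covariate is given below.

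**Figure D2:**
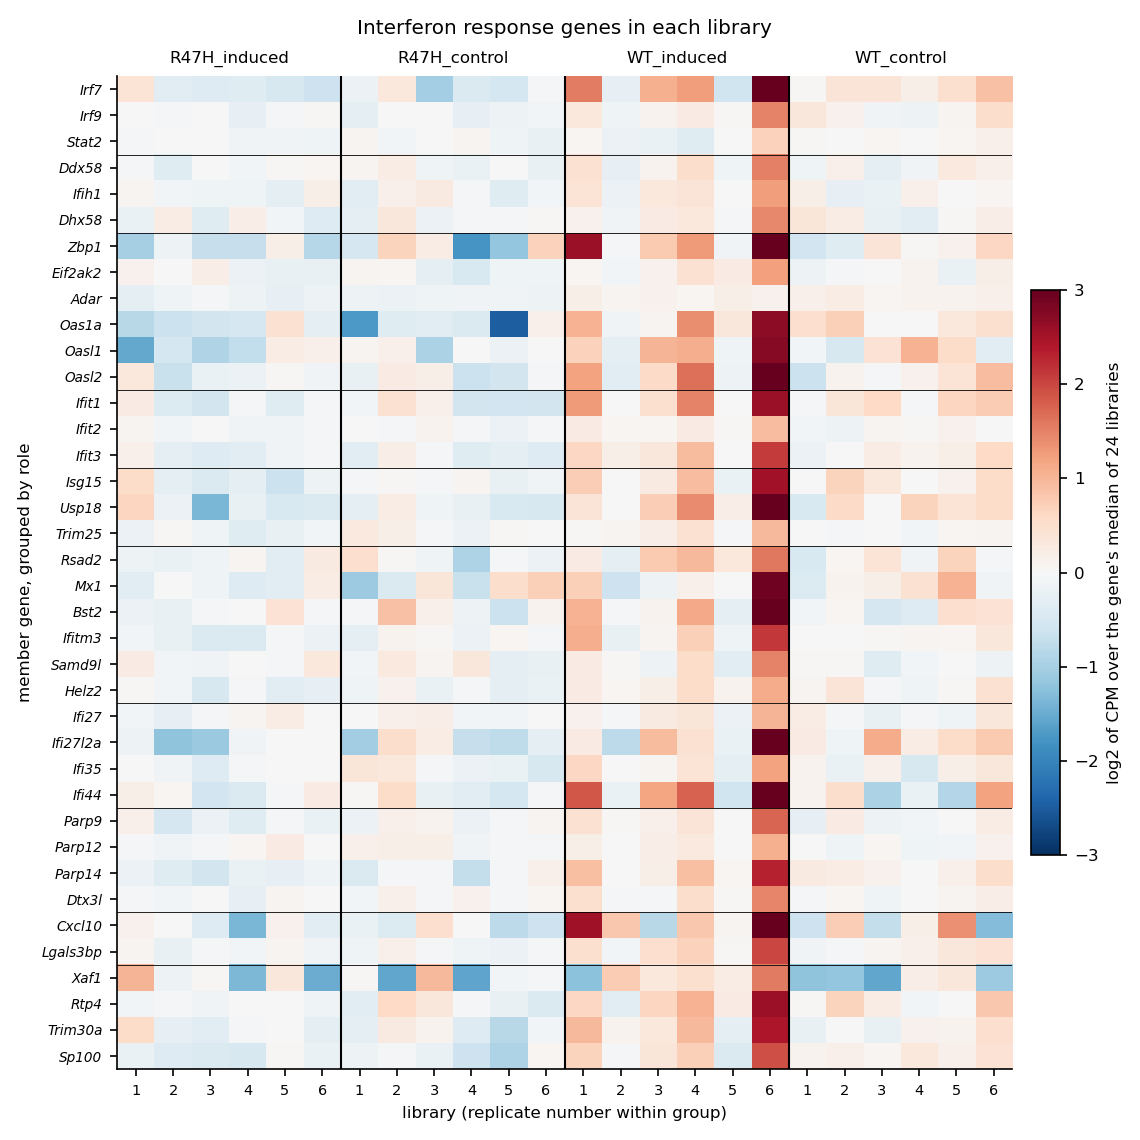
Heat map of 38 interferon response genes (rows, grouped by role) in 24 libraries (columns, by group), coloured by the log2 of CPM over the gene's median of all libraries, clipped at 3 in either direction. The column of WT_induced replicate 6 is the highest in 37 of 38 rows, followed by replicates 4 and 1 of the same group.

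R47H_induced against WT_induced compares the 2 genotypes under tamoxifen, and so holds any difference between them besides the form of TREM2. Without tamoxifen, in R47H_control against WT_control, 5.74% of all genes were called. Of the 35 tested genes, 16 fell and none rose (edgeR, adjusted p below 0.05), where 5.8% of all 19678 genes were called and 3.22% were lower. The 35 log2 fold changes were all negative, from -2.03 to -0.11, with a median of -0.82, against a median of 0.0016 over all genes tested. At an unadjusted p below 0.05 it was 32 of the 35, against 20.1% of all genes. Without WT_induced replicate 6, 12 of the 35 fell, where 4.86% of all genes were called and 2.59% were lower, 34 were negative and their median was -0.41. Of the 12, 11 were among the 16, namely Adar, Helz2, Ifit1, Ifit3, Ifitm3, Irf7, Parp14, Parp9, Sp100, Trim25 and Usp18. Lgals3bp was gained, and Ifi44, Isg15, Oas1a, Oasl2 and Rtp4 were lost. In 34 of the 35 the fold change moved nearer to zero without that library. It had been picked as the highest in these same genes, so this move follows largely from the choice and is no separate result.

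How many of these genes passed depended on the libraries and the test. A fit on the 12 libraries of these 2 groups called only Adar (4.35% of all genes), and on the 11 without replicate 6 it called Adar, Helz2, Ifit3 and Parp14 (4.36%). DESeq2 called 25 of 35 (7.66% of all genes), limma-voom 3 (5.56%) and limma-voom with sample weights 7 (6.27%). Without replicate 6, limma-voom called 7 (4.87%). When the rRNA-like share entered the fit as a covariate, edgeR called 7 with all libraries (5.25%) and 9 without replicate 6 (4.92%). Adar passed in all 39 alternatives tried, Helz2 in 38, Parp14 and Trim25 in 37, Ifit3 in 35, Irf7 in 34, and Ifit1 and Usp18 in 33. Leaving out R47H_induced replicate 3 left 6 called (4.5% of all genes), leaving out replicate 4 of that group left 8 (4.9%) and leaving out replicate 5 left 10 (4.43%), while leaving out WT_induced replicate 2 gave 26 (5.27%).

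**Figure D3:**
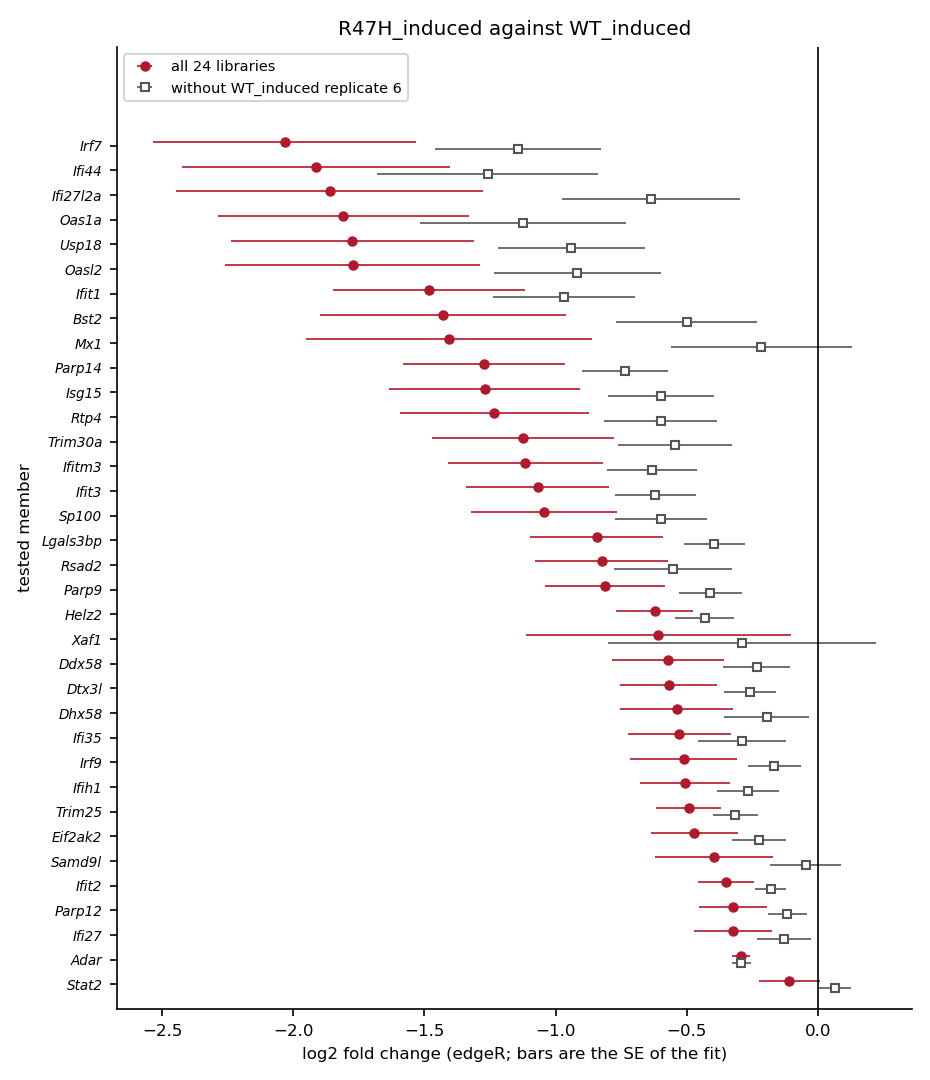
Log2 fold change of the tested interferon response genes in R47H_induced against WT_induced (horizontal axis, bars are the SE of the fit) with all 24 libraries and without WT_induced replicate 6. All 35 values are negative with every library, and 34 of 35 lie nearer zero without that one, which was picked as the highest in these genes.

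Few of the genes separated these groups in every library. In 3 of the 35 tested genes, Adar, Helz2 and Parp14, every R47H_induced library lay below every WT_induced library, where 1.79% of all genes did so. The same 3 did so without WT_induced replicate 6, where 2.39% of all genes did. In the other genes, between 1 and 5 WT_induced libraries lay above all R47H_induced libraries. Replicate 6 was among these in all 38 genes, replicate 4 in 35, replicate 1 in 29, replicate 3 in 24, replicate 5 in 8 and replicate 2 in 7.

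The transcription factors of the response were Irf7, Irf9 and Stat2, and 1 of the 3 fell. Irf7 (ENSMUSG00000025498, chr7:141262706-141266481), the factor that amplifies interferon production and is itself induced by interferon, had the largest fold change of the 35 genes with all libraries, and Ifi44 had it without WT_induced replicate 6. Irf7 had 0.73, 0.872 and 1.53 CPM in R47H_induced and 0.737, 2.62 and 12.4 CPM in WT_induced. With corn oil, Irf7 had 0.543, 0.916 and 1.44 CPM in R47H_control and 1.17, 1.51 and 2.13 CPM in WT_control. For Irf7, WT_induced replicates 1, 3, 4 and 6 lay above every library of R47H_induced and of WT_control, replicates 2 and 5 did not, and the groups overlapped. Irf7 gave a log2 fold change of -2.03 (SE 0.50, edgeR adjusted p = 0.0184), and without WT_induced replicate 6 one of -1.14 (SE 0.32, edgeR adjusted p = 0.0368). Irf9 (ENSMUSG00000002325, chr14:55603571-55610030) is the DNA-binding subunit of ISGF3. Levels of Irf9 were 5.94, 6.96 and 7.23 CPM in R47H_induced, against 6.48, 7.96 and 19.9 CPM in WT_induced. In controls, Irf9 levels were 5.8, 6.53 and 7.11 CPM in R47H_control and 6.31, 7.6 and 10.2 CPM in WT_control. For Irf9, WT_induced replicates 1, 3, 4, 5 and 6 lay above every R47H_induced library and replicate 2 did not, so the groups overlapped. Irf9 exceeded the WT_control range in WT_induced replicate 6. Irf9 had a log2 fold change of -0.51 (SE 0.20, edgeR adjusted p = 0.155) with all libraries and of -0.17 (SE 0.10, edgeR adjusted p = 0.39) without WT_induced replicate 6. Stat2 (ENSMUSG00000040033, chr10:128270576-128292849) is the subunit that carries the activation signal. Stat2 stood at 22.2, 22.8 and 24.3 CPM in R47H_induced, against 18.7, 22.8 and 38.9 CPM in WT_induced. In R47H_control Stat2 stood at 20.8, 23.6 and 25.6 CPM, against 24, 24.9 and 26.9 CPM in WT_control. For Stat2, WT_induced replicates 1, 5 and 6 lay above every R47H_induced library and replicates 2, 3 and 4 did not, so the groups overlapped. Stat2 exceeded the WT_control range in WT_induced replicate 6. In the fit, Stat2 came to -0.11 on the log2 scale (SE 0.12, edgeR adjusted p = 0.672), or 0.07 (SE 0.06, edgeR adjusted p = 0.628) when WT_induced replicate 6 was left out. Irf9 and Stat2 did not pass, and for Stat2 the direction rested on replicate 6, the sign being positive without it.

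The cytoplasmic RNA sensors were Ifih1, Ddx58 and Dhx58, and none of the 3 passed with or without WT_induced replicate 6. Ifih1 (ENSMUSG00000026896, chr2:62595798-62646255) encodes the sensor of long duplex RNA. Ifih1 had 4.23, 4.73 and 5.77 CPM in R47H_induced and 4.55, 6.53 and 12.2 CPM in WT_induced. With corn oil, Ifih1 had 3.98, 4.93 and 6.17 CPM in R47H_control and 4.29, 5.22 and 5.79 CPM in WT_control. For Ifih1, WT_induced replicates 1, 3, 4 and 6 lay above every library of R47H_induced and of WT_control, replicates 2 and 5 did not, and the groups overlapped. Ifih1 had a log2 fold change of -0.51 (SE 0.17, edgeR adjusted p = 0.0878) with all libraries and of -0.27 (SE 0.12, edgeR adjusted p = 0.213) without WT_induced replicate 6. Ddx58 (ENSMUSG00000040296, chr4:40203773-40239828) encodes RIG-I, which detects short RNA with a triphosphate end. Levels of Ddx58 were 3.19, 4.0 and 4.29 CPM in R47H_induced, against 3.46, 5.01 and 11.8 CPM in WT_induced. In controls, Ddx58 levels were 3.51, 3.96 and 4.76 CPM in R47H_control and 3.32, 4.2 and 5.0 CPM in WT_control. For Ddx58, WT_induced replicates 1, 3, 4 and 6 lay above every R47H_induced library and replicates 2 and 5 did not, so the groups overlapped. Ddx58 exceeded the WT_control range in WT_induced replicates 1, 4 and 6. Ddx58 gave a log2 fold change of -0.57 (SE 0.21, edgeR adjusted p = 0.123), and without WT_induced replicate 6 one of -0.23 (SE 0.13, edgeR adjusted p = 0.328). Dhx58 (ENSMUSG00000017830, chr11:100694884-100704271) encodes a related helicase that tunes the other two. Dhx58 stood at 0.708, 0.858 and 1.12 CPM in R47H_induced, against 0.882, 1.08 and 2.64 CPM in WT_induced. In R47H_control Dhx58 stood at 0.759, 0.92 and 1.22 CPM, against 0.743, 1.03 and 1.23 CPM in WT_control. For Dhx58, WT_induced replicates 3, 4 and 6 lay above every R47H_induced library and replicates 1, 2 and 5 did not, so the groups overlapped. Dhx58 exceeded the WT_control range in WT_induced replicate 6. In the fit, Dhx58 came to -0.54 on the log2 scale (SE 0.22, edgeR adjusted p = 0.148), or -0.19 (SE 0.16, edgeR adjusted p = 0.572) when WT_induced replicate 6 was left out. In none of the 3 sensors did the groups separate.

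Of the effectors that sense, edit or cut foreign nucleic acid, 3 of 4 tested genes fell, and 1 did so without WT_induced replicate 6. Adar (ENSMUSG00000027951, chr3:89715022-89753446), which edits adenosine to inosine in duplex RNA and so keeps self RNA from triggering the sensors, was the most abundant of the 38 per kilobase of transcript, at a median of 28.3 CPM per kb over the 24 libraries. Adar had 156, 172 and 185 CPM in R47H_induced and 199, 209 and 217 CPM in WT_induced. With corn oil, Adar had 169, 174 and 179 CPM in R47H_control and 201, 210.1 and 224 CPM in WT_control. All 6 WT_induced libraries lay above all 6 R47H_induced libraries for Adar, so these groups did not overlap, while none lay above the highest WT_control library. Adar gave a log2 fold change of -0.29 (SE 0.03, edgeR adjusted p = 4.84e-06), and without WT_induced replicate 6 one of -0.29 (SE 0.04, edgeR adjusted p = 1.23e-05). Its level in WT_induced replicate 6 lay within the range of the other libraries of that group. Exons of Chrnb2 overlap 16.8% of the exon bases of Adar, and without strand these reads cannot be assigned. Oas1a (ENSMUSG00000052776, chr5:120896256-120907521) makes oligoadenylates that activate an RNase. Levels of Oas1a were 0.107, 0.143 and 0.331 CPM in R47H_induced, against 0.209, 0.408 and 1.73 CPM in WT_induced. In controls, Oas1a levels were 0, 0.16 and 0.257 CPM in R47H_control and 0.223, 0.317 and 0.408 CPM in WT_control. For Oas1a, WT_induced replicates 1, 4 and 6 lay above every library of R47H_induced and of WT_control, replicates 2, 3 and 5 did not, and the groups overlapped. Oas1a had a log2 fold change of -1.81 (SE 0.48, edgeR adjusted p = 0.0234) with all libraries and of -1.12 (SE 0.39, edgeR adjusted p = 0.0969) without WT_induced replicate 6. It shares 57.6% of its 50-base stretches with Oas1g or Oas1b, so its counts are uncertain. Oasl2 (ENSMUSG00000029561, chr5:114896936-114912234) encodes a protein of the same family. Oasl2 stood at 1.12, 1.65 and 2.28 CPM in R47H_induced, against 1.44, 3.5 and 18.3 CPM in WT_induced. In R47H_control Oasl2 stood at 1.14, 1.64 and 2.16 CPM, against 1.14, 1.97 and 3.48 CPM in WT_control. For Oasl2, WT_induced replicates 1, 3, 4 and 6 lay above every R47H_induced library and replicates 2 and 5 did not, so the groups overlapped. Oasl2 exceeded the WT_control range in WT_induced replicates 1, 4 and 6. In the fit, Oasl2 came to -1.77 on the log2 scale (SE 0.48, edgeR adjusted p = 0.0336), or -0.92 (SE 0.32, edgeR adjusted p = 0.107) when WT_induced replicate 6 was left out. Eif2ak2, the kinase PKR that halts translation on duplex RNA, came to -0.47 (edgeR adjusted p = 0.101), or -0.23 without WT_induced replicate 6.

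Zbp1 and Oasl1 belong to the same role and were too low to be tested. Zbp1 had 0.0356, 0.0554 and 0.142 CPM in R47H_induced, against 0.109, 0.303 and 5.26 CPM in WT_induced. Oasl1, which in mice restrains translation of Irf7, had 0, 0.0438 and 0.118 CPM in R47H_induced, against 0.0697, 0.213 and 0.911 CPM in WT_induced. WT_induced replicates 1, 3, 4 and 6 lay above every R47H_induced library for both genes. WT_induced replicate 6 held 231 of the 370 counts of Zbp1 and 40 of the 134 of Oasl1.

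The IFIT family binds viral RNA that lacks the cap marks of self RNA and blocks its translation, and 2 of its 3 tested genes fell, with and without WT_induced replicate 6. Ifit1 (ENSMUSG00000034459, chr19:34640871-34650009) recognises the RNA end directly. Ifit1 had 1.45, 1.86 and 2.52 CPM in R47H_induced and 2.11, 4.12 and 13 CPM in WT_induced. With corn oil, Ifit1 had 1.41, 1.72 and 2.93 CPM in R47H_control and 2.08, 3.0 and 3.67 CPM in WT_control. For Ifit1, WT_induced replicates 1, 3, 4 and 6 lay above every R47H_induced library and replicates 2 and 5 did not, so the groups overlapped. Ifit1 exceeded the WT_control range in WT_induced replicates 1, 4 and 6. Ifit1 gave a log2 fold change of -1.48 (SE 0.36, edgeR adjusted p = 0.0181), and without WT_induced replicate 6 one of -0.97 (SE 0.27, edgeR adjusted p = 0.0403). Ifit3 (ENSMUSG00000074896, chr19:34583531-34588731) binds the other members and steadies the complex. Levels of Ifit3 were 3.68, 4.25 and 5.33 CPM in R47H_induced, against 4.81, 6.79 and 20.9 CPM in WT_induced. In controls, Ifit3 levels were 3.7, 3.86 and 5.53 CPM in R47H_control and 4.25, 5.33 and 7.33 CPM in WT_control. For Ifit3, WT_induced replicates 1, 2, 3, 4 and 6 lay above every R47H_induced library and replicate 5 did not, so the groups overlapped. Ifit3 exceeded the WT_control range in WT_induced replicates 1, 4 and 6. Ifit3 had a log2 fold change of -1.07 (SE 0.27, edgeR adjusted p = 0.0229) with all libraries and of -0.62 (SE 0.15, edgeR adjusted p = 0.0194) without WT_induced replicate 6. Of the 50-base stretches of Ifit3, 51.2% also occur in its neighbour Ifit3b, so its counts are uncertain. Ifit2 (ENSMUSG00000045932, chr19:34550694-34576419) is a family member linked to cell death. Ifit2 stood at 11.2, 11.5 and 12.8 CPM in R47H_induced, against 12.3, 13.4 and 23 CPM in WT_induced. In R47H_control Ifit2 stood at 10.7, 11.8 and 13 CPM, against 10.9, 12.2 and 13.2 CPM in WT_control. For Ifit2, WT_induced replicates 1, 4 and 6 lay above every library of R47H_induced and of WT_control, replicates 2, 3 and 5 did not, and the groups overlapped. In the fit, Ifit2 came to -0.35 on the log2 scale (SE 0.11, edgeR adjusted p = 0.0525), or -0.18 (SE 0.06, edgeR adjusted p = 0.0743) when WT_induced replicate 6 was left out.

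The ISG15 system attaches a ubiquitin-like protein to new proteins during infection, and all 3 of its tested genes fell, 2 of them without WT_induced replicate 6 as well. Trim25 (ENSMUSG00000000275, chr11:88999376-89020293) is a ubiquitin ligase that activates RIG-I and also attaches ISG15. Trim25 had 4.71, 5.46 and 6.24 CPM in R47H_induced and 5.98, 6.72 and 12.1 CPM in WT_induced. With corn oil, Trim25 had 5.36, 6.2 and 7.49 CPM in R47H_control and 5.79, 6.0 and 6.4 CPM in WT_control. For Trim25, WT_induced replicates 2, 3, 4 and 6 lay above every library of R47H_induced and of WT_control, replicates 1 and 5 did not, and the groups overlapped. In the fit, Trim25 came to -0.49 on the log2 scale (SE 0.12, edgeR adjusted p = 0.0168), or -0.32 (SE 0.09, edgeR adjusted p = 0.0299) when WT_induced replicate 6 was left out. Usp18 (ENSMUSG00000030107, chr6:121245906-121270916) removes ISG15 and restrains the interferon receptor. Levels of Usp18 were 0.251, 0.577 and 1.17 CPM in R47H_induced, against 0.743, 1.11 and 6.56 CPM in WT_induced. In controls, Usp18 levels were 0.515, 0.602 and 0.858 CPM in R47H_control and 0.518, 1.05 and 1.19 CPM in WT_control. For Usp18, WT_induced replicates 3, 4 and 6 lay above every library of R47H_induced and of WT_control, replicates 1, 2 and 5 did not, and the groups overlapped. Usp18 gave a log2 fold change of -1.77 (SE 0.46, edgeR adjusted p = 0.0249), and without WT_induced replicate 6 one of -0.94 (SE 0.28, edgeR adjusted p = 0.0486). Isg15 (ENSMUSG00000035692, chr4:156199424-156200818) encodes the modifier itself. Isg15 stood at 0.686, 0.917 and 1.64 CPM in R47H_induced, against 0.956, 1.61 and 6.63 CPM in WT_induced. In R47H_control Isg15 stood at 0.942, 1.07 and 1.17 CPM, against 1.09, 1.3 and 1.79 CPM in WT_control. For Isg15, WT_induced replicates 1, 4 and 6 lay above every library of R47H_induced and of WT_control, replicates 2, 3 and 5 did not, and the groups overlapped. Isg15 had a log2 fold change of -1.27 (SE 0.36, edgeR adjusted p = 0.0405) with all libraries and of -0.60 (SE 0.20, edgeR adjusted p = 0.0863) without WT_induced replicate 6. Trim25 differed from the other members of the system in the controls, where its range in R47H_control reached above that of WT_control.

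**Figure D4:**
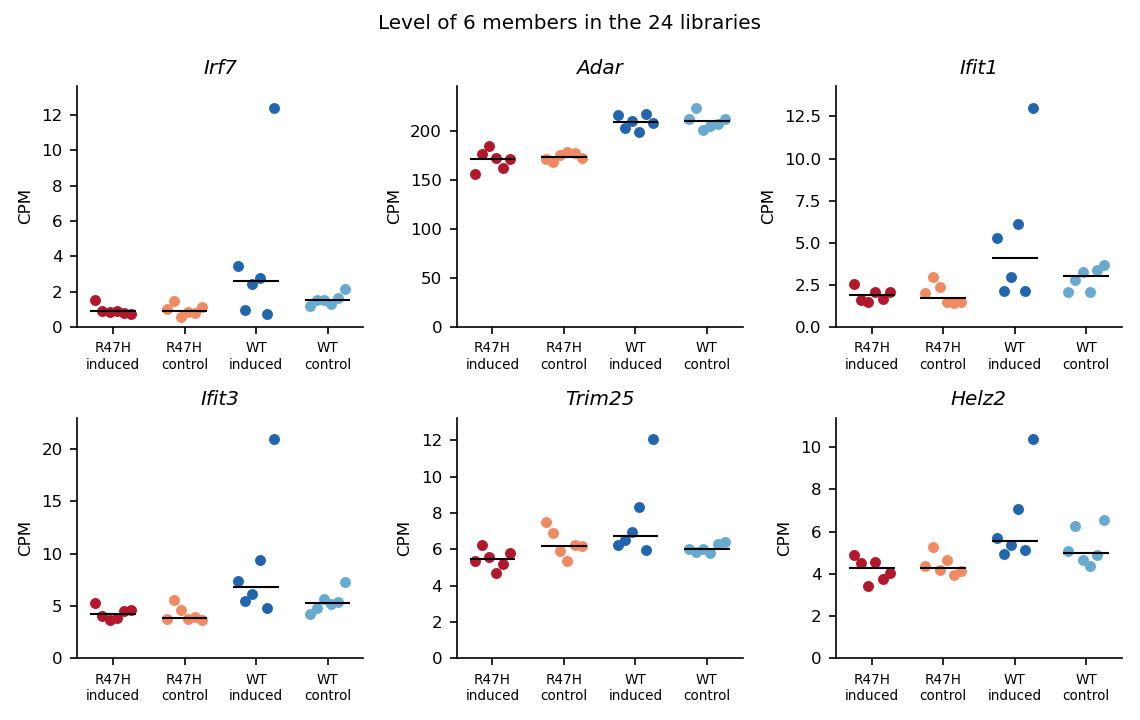
CPM of Irf7, Adar, Ifit1, Ifit3, Trim25 and Helz2 (vertical axes, from 0) in each of 24 libraries (points), by group, with a line at each group's median. WT_induced replicate 6 is the highest point in 5 of the 6 panels, and in the Adar panel both R47H groups lie below both WT groups.

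Other antiviral effectors were Helz2, Ifitm3, Rsad2, Mx1, Bst2 and Samd9l, and 2 of the 6 fell, with and without WT_induced replicate 6. Helz2 (ENSMUSG00000027580, chr2:181227615-181242027) encodes a helicase known as a co-activator of nuclear receptors. Helz2 had 3.4, 4.28 and 4.87 CPM in R47H_induced and 4.95, 5.54 and 10.4 CPM in WT_induced. With corn oil, Helz2 had 3.95, 4.26 and 5.26 CPM in R47H_control and 4.36, 5.0 and 6.53 CPM in WT_control. All 6 WT_induced libraries lay above all 6 R47H_induced libraries for Helz2, so these groups did not overlap, and WT_induced replicates 4 and 6 lay above every WT_control library as well. Helz2 had a log2 fold change of -0.62 (SE 0.15, edgeR adjusted p = 0.0123) with all libraries and of -0.43 (SE 0.11, edgeR adjusted p = 0.0211) without WT_induced replicate 6. Ifitm3 (ENSMUSG00000025492, chr7:141009586-141010770) sits in endosomal membranes and blocks the entry of enveloped viruses. Levels of Ifitm3 were 3.13, 3.7 and 4.04 CPM in R47H_induced, against 3.62, 5.77 and 18.7 CPM in WT_induced. In controls, Ifitm3 levels were 3.48, 4.24 and 4.57 CPM in R47H_control and 4.19, 4.38 and 5.41 CPM in WT_control. For Ifitm3, WT_induced replicates 1, 3, 4 and 6 lay above every R47H_induced library and replicates 2 and 5 did not, so the groups overlapped. Ifitm3 exceeded the WT_control range in WT_induced replicates 1, 4 and 6. Ifitm3 gave a log2 fold change of -1.12 (SE 0.29, edgeR adjusted p = 0.0274), and without WT_induced replicate 6 one of -0.63 (SE 0.17, edgeR adjusted p = 0.0342). Rsad2 (ENSMUSG00000020641, chr12:26442753-26456452) encodes viperin, which makes a nucleotide that ends viral RNA chains. Rsad2 stood at 0.709, 0.828 and 1.11 CPM in R47H_induced, against 0.743, 1.38 and 2.85 CPM in WT_induced. In R47H_control Rsad2 stood at 0.462, 0.864 and 1.31 CPM, against 0.648, 0.919 and 1.48 CPM in WT_control. For Rsad2, WT_induced replicates 3, 4, 5 and 6 lay above every R47H_induced library and replicates 1 and 2 did not, so the groups overlapped. Rsad2 exceeded the WT_control range in WT_induced replicates 3, 4 and 6. In the fit, Rsad2 came to -0.82 on the log2 scale (SE 0.25, edgeR adjusted p = 0.0522), or -0.55 (SE 0.23, edgeR adjusted p = 0.167) when WT_induced replicate 6 was left out. Mx1, Bst2 (tetherin, which holds budding virus at the cell surface) and Samd9l (a restriction factor) came to -1.41, -1.43 and -0.40 on the log2 scale and did not pass. Without WT_induced replicate 6 they came to -0.22, -0.50 and -0.05.

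Of the 4 tested IFI genes, 1 fell with all libraries and none without WT_induced replicate 6. Ifi44 (ENSMUSG00000028037, chr3:151730922-151749947) encodes an interferon-induced cytoplasmic protein. Ifi44 had 0.279, 0.442 and 0.531 CPM in R47H_induced and 0.273, 1.33 and 4.33 CPM in WT_induced. With corn oil, Ifi44 had 0.288, 0.394 and 0.664 CPM in R47H_control and 0.202, 0.423 and 1.08 CPM in WT_control. For Ifi44, WT_induced replicates 1, 3, 4 and 6 lay above every R47H_induced library and replicates 2 and 5 did not, so the groups overlapped. Ifi44 exceeded the WT_control range in WT_induced replicates 1, 4 and 6. Ifi44 gave a log2 fold change of -1.91 (SE 0.51, edgeR adjusted p = 0.028), and without WT_induced replicate 6 one of -1.26 (SE 0.42, edgeR adjusted p = 0.0903). Ifi27l2a (ENSMUSG00000079017, chr12:103442167-103443680) encodes a small hydrophobic protein that is widely used as an interferon marker in mouse brain. Levels of Ifi27l2a were 0.178, 0.433 and 0.487 CPM in R47H_induced, against 0.255, 0.63 and 5.1 CPM in WT_induced. In controls, Ifi27l2a levels were 0.207, 0.332 and 0.72 CPM in R47H_control and 0.435, 0.655 and 1.1 CPM in WT_control. For Ifi27l2a, WT_induced replicates 1, 3, 4 and 6 lay above every R47H_induced library and replicates 2 and 5 did not, so the groups overlapped. Ifi27l2a exceeded the WT_control range in WT_induced replicate 6. Ifi27l2a had a log2 fold change of -1.86 (SE 0.58, edgeR adjusted p = 0.065) with all libraries and of -0.64 (SE 0.34, edgeR adjusted p = 0.32) without WT_induced replicate 6. Ifi35 (ENSMUSG00000010358, chr11:101448407-101458698) encodes a leucine zipper partner of Nmi. Ifi35 stood at 1.2, 1.56 and 1.6 CPM in R47H_induced, against 1.31, 1.91 and 3.76 CPM in WT_induced. In R47H_control Ifi35 stood at 1.13, 1.49 and 2.07 CPM, against 1.14, 1.76 and 2.05 CPM in WT_control. For Ifi35, WT_induced replicates 1, 2, 3, 4 and 6 lay above every R47H_induced library and replicate 5 did not, so the groups overlapped. Ifi35 exceeded the WT_control range in WT_induced replicates 1, 4 and 6. In the fit, Ifi35 came to -0.53 on the log2 scale (SE 0.20, edgeR adjusted p = 0.113), or -0.29 (SE 0.17, edgeR adjusted p = 0.362) when WT_induced replicate 6 was left out. Exons of Gm11626 overlap 16.8% of the exon bases of Ifi35, which leaves some of its counts unassignable. Ifi27, the neighbour of Ifi27l2a on chromosome 12, had 10.9, 12.7 and 15.1 CPM in R47H_induced, against 11.5, 14.9 and 26.1 CPM in WT_induced, and did not pass.

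The ADP-ribosyltransferases Parp9, Parp12 and Parp14 and the ubiquitin ligase Dtx3l, the partner of Parp9, modify host and viral proteins, and 2 of the 4 fell, with and without WT_induced replicate 6. Parp14 (ENSMUSG00000034422, chr16:35832874-35871544) transfers single ADP-ribose units. Parp14 had 2.32, 2.94 and 3.16 CPM in R47H_induced and 3.46, 5.16 and 17.4 CPM in WT_induced. With corn oil, Parp14 had 2.06, 3.32 and 3.8 CPM in R47H_control and 3.42, 3.92 and 5.01 CPM in WT_control. All 6 WT_induced libraries lay above all 6 R47H_induced libraries for Parp14, so these groups did not overlap, and WT_induced replicates 1, 4 and 6 lay above every WT_control library as well. In the fit, Parp14 came to -1.27 on the log2 scale (SE 0.31, edgeR adjusted p = 0.0168), or -0.74 (SE 0.16, edgeR adjusted p = 0.0085) when WT_induced replicate 6 was left out. Parp9 (ENSMUSG00000022906, chr16:35938470-35972605) acts in a complex with Dtx3l. Levels of Parp9 were 2.01, 2.52 and 3.24 CPM in R47H_induced, against 2.89, 3.5 and 9.75 CPM in WT_induced. In controls, Parp9 levels were 2.55, 2.94 and 3.21 CPM in R47H_control and 2.42, 2.8 and 3.45 CPM in WT_control. For Parp9, WT_induced replicates 1, 4 and 6 lay above every library of R47H_induced and of WT_control, replicates 2, 3 and 5 did not, and the groups overlapped. Parp9 gave a log2 fold change of -0.81 (SE 0.23, edgeR adjusted p = 0.0365), and without WT_induced replicate 6 one of -0.41 (SE 0.12, edgeR adjusted p = 0.0415). Dtx3l (ENSMUSG00000049502, chr16:35926511-35939151) lies head to head with Parp9. Dtx3l stood at 3.7, 4.27 and 4.68 CPM in R47H_induced, against 4.2, 5.36 and 12.3 CPM in WT_induced. In R47H_control Dtx3l stood at 4.14, 4.43 and 4.93 CPM, against 4.04, 4.5 and 5.03 CPM in WT_control. For Dtx3l, WT_induced replicates 1, 4 and 6 lay above every library of R47H_induced and of WT_control, replicates 2, 3 and 5 did not, and the groups overlapped. Dtx3l had a log2 fold change of -0.57 (SE 0.18, edgeR adjusted p = 0.0706) with all libraries and of -0.26 (SE 0.10, edgeR adjusted p = 0.136) without WT_induced replicate 6. Their exons overlap in 9.4% of Parp9 and 8.0% of Dtx3l, so a small part of their counts cannot be told apart. Parp12, an enzyme of the Golgi, came to -0.32 (edgeR adjusted p = 0.148), or -0.12 without WT_induced replicate 6.

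The secreted products were Lgals3bp and Cxcl10, and the 1 that could be tested passed only without WT_induced replicate 6. Lgals3bp (ENSMUSG00000033880, chr11:118392751-118402092) encodes a glycoprotein that binds galectins. Lgals3bp had 8.66, 9.72 and 10.7 CPM in R47H_induced and 9.52, 14.2 and 40.7 CPM in WT_induced. With corn oil, Lgals3bp had 8.98, 9.46 and 11.2 CPM in R47H_control and 9.37, 10.9 and 13.6 CPM in WT_control. For Lgals3bp, WT_induced replicates 1, 3, 4 and 6 lay above every library of R47H_induced and of WT_control, replicates 2 and 5 did not, and the groups overlapped. Lgals3bp gave a log2 fold change of -0.84 (SE 0.25, edgeR adjusted p = 0.0533), and without WT_induced replicate 6 one of -0.39 (SE 0.12, edgeR adjusted p = 0.0467). Its standard error was larger with replicate 6 in the fit, and its fold change larger too. Cxcl10 had 0.0183, 0.108 and 0.142 CPM in R47H_induced, against 0.0489, 0.257 and 13.7 CPM in WT_induced. Its level in replicate 6 was 14.1 times that of the next of the other 23 libraries.

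Among the remaining induced genes, Sp100, Rtp4, Trim30a and Xaf1, 2 of 4 fell with all libraries and 1 without WT_induced replicate 6. Sp100 (ENSMUSG00000026222, chr1:85649988-85709998) is a component of nuclear bodies that restrict viruses. Levels of Sp100 were 1.41, 1.6 and 2.01 CPM in R47H_induced, against 1.45, 2.87 and 7.72 CPM in WT_induced. In controls, Sp100 levels were 1.02, 1.73 and 2.06 CPM in R47H_control and 2.05, 2.2 and 2.66 CPM in WT_control. For Sp100, WT_induced replicates 1, 3, 4 and 6 lay above every R47H_induced library and replicates 2 and 5 did not, so the groups overlapped. Sp100 exceeded the WT_control range in WT_induced replicates 1, 4 and 6. Sp100 had a log2 fold change of -1.05 (SE 0.28, edgeR adjusted p = 0.0274) with all libraries and of -0.60 (SE 0.18, edgeR adjusted p = 0.0442) without WT_induced replicate 6. Rtp4 (ENSMUSG00000033355, chr16:23609919-23614222) is a chaperone of membrane receptors with antiviral activity. Rtp4 stood at 0.929, 0.977 and 1.03 CPM in R47H_induced, against 0.813, 1.62 and 6.29 CPM in WT_induced. In R47H_control Rtp4 stood at 0.74, 0.925 and 1.58 CPM, against 0.965, 1.14 and 1.84 CPM in WT_control. For Rtp4, WT_induced replicates 1, 3, 4, 5 and 6 lay above every R47H_induced library and replicate 2 did not, so the groups overlapped. Rtp4 exceeded the WT_control range in WT_induced replicates 4 and 6. In the fit, Rtp4 came to -1.23 on the log2 scale (SE 0.36, edgeR adjusted p = 0.0441), or -0.60 (SE 0.21, edgeR adjusted p = 0.107) when WT_induced replicate 6 was left out. Trim30a (ENSMUSG00000030921, chr7:104409025-104465193) encodes a mouse regulator of inflammatory signalling. Trim30a had 1.31, 1.53 and 2.49 CPM in R47H_induced and 1.39, 2.72 and 9.32 CPM in WT_induced. With corn oil, Trim30a had 0.916, 1.48 and 2.02 CPM in R47H_control and 1.43, 1.73 and 2.39 CPM in WT_control. For Trim30a, WT_induced replicates 1, 4 and 6 lay above every library of R47H_induced and of WT_control, replicates 2, 3 and 5 did not, and the groups overlapped. Trim30a gave a log2 fold change of -1.12 (SE 0.35, edgeR adjusted p = 0.0597), and without WT_induced replicate 6 one of -0.55 (SE 0.22, edgeR adjusted p = 0.157). Xaf1, a factor linked to cell death, had 2.72, 7.39 and 15.7 CPM in R47H_induced, 3.28, 10.1 and 22.8 CPM in WT_induced, 2.56, 7.41 and 15.2 CPM in R47H_control and 2.57, 3.5 and 9.76 CPM in WT_control. For Xaf1 no library lay between 3.61 and 6.93 CPM, and every group had libraries on both sides of that gap. A group's median thus depends on how many of its libraries lay on each side. The fold change of Xaf1, -0.61 with an SE of 0.50 (-0.29 without WT_induced replicate 6), is poorly defined.

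R47H_control against WT_control asks whether the mice differed without tamoxifen. Only Adar of the 35 genes fell and none rose, where 5.74% of all genes were called and 3.04% were lower. Adar came to -0.27 (SE 0.03, edgeR adjusted p = 1.73e-05), close to its value under tamoxifen. Its 6 R47H_control libraries all lay below the 6 WT_control libraries, as in 1.51% of all genes. Of the 35 log2 fold changes, 29 were negative, with a median of -0.21. Irf7 came to -0.70 (SE 0.53, edgeR adjusted p = 0.498) and Oas1a to -1.22 (SE 0.56, edgeR adjusted p = 0.214), neither of which passed. At an unadjusted p below 0.05 it was 2 of the 35, against 20.5% of all genes, and 11 without WT_induced replicate 6, against 21.3%. Replicate 6 of WT_induced is in neither group, but with it the shared spread of the fit is wider, so the count of 2 depends on that library. Without that library Adar again was the only one called, where 6.36% of all genes were called and 3.34% were lower. A fit on the 12 libraries of these groups called Adar and Irf7, where 5.29% of all genes were called.

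WT_induced against WT_control asks how tamoxifen-treated mice with the WT form differed from their controls. It shares the WT_induced libraries with R47H_induced against WT_induced, so the values of the 2 comparisons are not independent. No gene of the 35 passed (edgeR, lowest adjusted p 0.492), nor did any of the 19678 genes (0.0%). At an unadjusted p below 0.05 it was 25 of the 35, against 7.85% of all genes, and 33 of the 35 were positive with a median of 0.64. Without replicate 6, 4 of the 35 had an unadjusted p below 0.05, against 5.76% of all genes, 30 were positive and the median was 0.19. Ifi44 had the largest log2 fold change, 1.61 (SE 0.49), which was 0.96 (SE 0.41) without replicate 6. DESeq2 and limma-voom called none of the 35 either, where DESeq2 called 0.0508% of all genes.

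R47H_induced against R47H_control asks the same in mice with the R47H form. None of the 35 passed (edgeR), again as in 0.0% of all genes, and none had an unadjusted p below 0.05, against 5.11% of all genes. WT_induced replicate 6 is in neither group, but it adds to the spread that the fit shares over all groups. Without that library, 1 of the 35 had an unadjusted p below 0.05, against 5.53% of all genes. The log2 fold changes ran from -0.22 to 0.41 with a median of -0.03, and 11 of 35 were positive. DESeq2 and limma-voom called none of the 35 either, where DESeq2 called 0.0203% of all genes. Irf7 had 0.73, 0.872 and 1.53 CPM in R47H_induced, against 0.543, 0.916 and 1.44 CPM in R47H_control, a log2 fold change of -0.03 (SE 0.56). These 2 groups overlapped in every one of the 35 genes, where 0.163% of all genes were lower and 0.178% higher with no overlap. None passed without WT_induced replicate 6 (0.00505% of all genes) or in a fit on the 12 libraries of these groups (0.00531%).

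**Figure D5:**
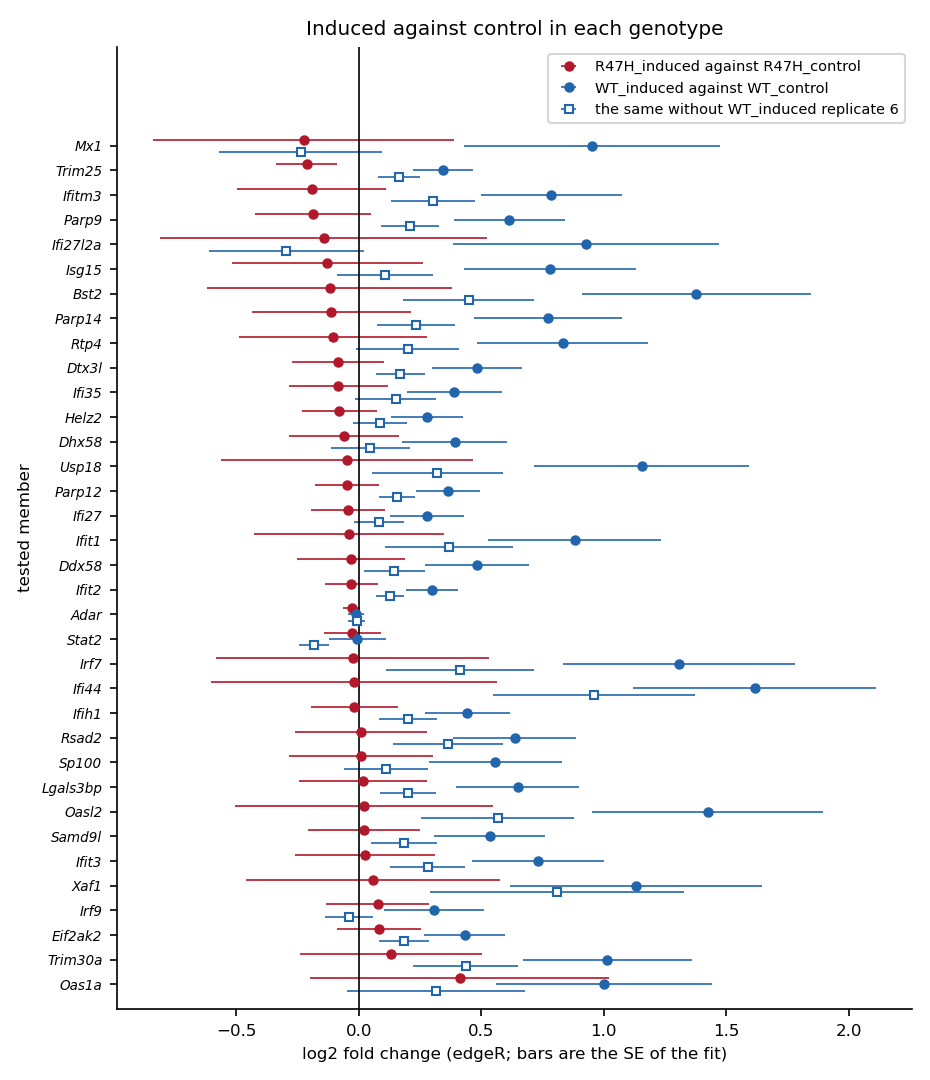
Log2 fold change of the tested interferon response genes under induction (horizontal axis, bars are the SE of the fit) in R47H mice, in WT mice, and in WT mice without WT_induced replicate 6. Values run from -0.22 to 0.41 in R47H mice and have a median of 0.64 in WT mice, or 0.19 without that library.

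The difference between these inductions, R47H minus WT, was tested directly. No gene of the 35 passed in edgeR (0.0% of all genes), DESeq2 (0.0152%) or limma-voom, and 8 had an unadjusted p below 0.05, against 7.94% of all genes. All 35 differences were negative, with a median of -0.63. Without WT_induced replicate 6, 30 were negative, the median was -0.23 and 2 had an unadjusted p below 0.05, against 7.29% of all genes. Trim25 had the lowest p, with a difference of -0.56 on the log2 scale (SE 0.18, edgeR adjusted p = 0.528), or -0.38 (SE 0.12, edgeR adjusted p = 0.457) without WT_induced replicate 6. So 16 genes fell in R47H_induced against WT_induced, and none passed the test of whether induction differed between the genotypes.

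Upstream of these genes, the interferons themselves were at or near 0. None of the 22 ligand rows could be tested and 15 had no count in any library, Ifnb1 among them. Ifnk had 20 counts in 13 libraries and none in WT_induced replicate 6. Ifne had 3 counts, Ifnab 2, and Ifna13, Ifna14 and Ifna15 had 1 each. Ifng, the type II interferon of T cells and NK cells, had 6 counts, all of them in WT_induced replicate 6.

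Of the 11 genes for receptors and JAK-STAT signalling, all tested, 1 rose and none fell in R47H_induced against WT_induced. In the same fit 5.8% of all genes were called. Ifnar1, the receptor subunit that binds Tyk2, stood at 42.1, 46.5 and 48.2 CPM in R47H_induced, against 37.5, 38.5 and 41.9 CPM in WT_induced. The groups did not overlap, as in the 1.46% of all genes that were higher in every library, and its log2 fold change was 0.23 (SE 0.04, edgeR adjusted p = 0.00031), or 0.23 without WT_induced replicate 6. Ifnar1 also rose in R47H_control against WT_control, at 0.18 (SE 0.04, edgeR adjusted p = 0.00303).

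Of 19 genes that sense nucleic acid or switch on interferon, 2 fell and none rose, where 5.8% of all genes were called and 3.22% were lower. Irf3, the factor that starts interferon transcription, came to -0.25 (SE 0.07, edgeR adjusted p = 0.0243) and Traf3, an adaptor in the same path, to -0.19 (SE 0.05, edgeR adjusted p = 0.0212). Both passed without WT_induced replicate 6 too. In R47H_control against WT_control Irf3 fell as well, at -0.34 (SE 0.07, edgeR adjusted p = 0.00242), and Traf3, at -0.04 (edgeR adjusted p = 0.682), did not pass. Of 6 inhibitors of the pathway, 1 fell, against the same 3.22% of all genes. It was the phosphatase Ptpn11, at -0.16 (SE 0.03, edgeR adjusted p = 0.0016), or -0.17 without WT_induced replicate 6.

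Of 38 further interferon-stimulated genes, 16 fell and 1 rose, with a median of -0.85, where 5.8% of all genes were called and 3.22% were lower. Without WT_induced replicate 6, 7 fell and 2 rose, with a median of -0.39, where 4.86% were called and 2.59% were lower. Slfn5, of the Schlafen family, came to -0.78 (SE 0.17, edgeR adjusted p = 0.00524) and Ly6a, a surface protein of endothelial and immune cells, to -0.85 (SE 0.19, edgeR adjusted p = 0.00847). Without that library Slfn5 came to -0.60 (edgeR adjusted p = 0.00931) and Ly6a to -0.67 (edgeR adjusted p = 0.02). Herc6, the mouse ligase for ISG15, was the one that rose. It stood at 9.07, 11.2 and 17.5 CPM in R47H_induced, against 4.74, 5.42 and 11.5 CPM in WT_induced. The highest of WT_induced was again replicate 6, and its log2 fold change was 0.94 (SE 0.21, edgeR adjusted p = 0.00845) with that library and 1.21 (SE 0.16, edgeR adjusted p = 8e-05) without it. Herc6 also rose in R47H_control against WT_control, at 0.74 (SE 0.21, edgeR adjusted p = 0.0406).

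Of 12 tested genes that are induced mainly by interferon gamma, 7 fell, with a median of -1.58, where 3.22% of all genes were lower. Without WT_induced replicate 6, 6 fell, with a median of -0.89, where 2.59% were lower. Gbp4, a guanylate-binding protein, stood at 0.477, 0.967 and 1.35 CPM in R47H_induced, against 0.846, 2.57 and 17.1 CPM in WT_induced, and came to -2.87 (SE 0.62, edgeR adjusted p = 0.00745). Iigp1, an immunity-related GTPase, came to -2.99 (SE 0.68, edgeR adjusted p = 0.0113) and Gbp3 to -1.89 (SE 0.42, edgeR adjusted p = 0.00953). Without WT_induced replicate 6 all 3 passed, at -2.32 (SE 0.57, edgeR adjusted p = 0.0216) for Gbp4, -1.78 (SE 0.47, edgeR adjusted p = 0.0317) for Iigp1 and -1.25 (SE 0.30, edgeR adjusted p = 0.0186) for Gbp3. The summed level of the 14 genes of this list was 294 CPM in WT_induced replicate 6, 32.7 to 113 CPM in the other 5 WT_induced libraries and 27.3 to 35.2 CPM in R47H_induced.

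Summed markers of some other cells were highest in the same library. The 20 T cell and NK cell markers summed to 52.2 CPM in WT_induced replicate 6, where 17 of them had their highest value, against at most 33.9 CPM in the other 23 libraries. Ranges were 24.1 to 30.4 CPM in R47H_induced, 27.3 to 52.2 CPM in WT_induced, 27.9 to 30.9 CPM in R47H_control and 24.8 to 32.7 CPM in WT_control. That library held 56 of the 64 counts of Cd3d, 68 of the 100 of Cd8a and 229 of the 299 of Ccl5, and 979 of the 1029 of Cxcl9, a chemokine of the interferon gamma response. The 14 microglial markers summed to 520.0 CPM there, against at most 388 CPM elsewhere, with 11 of 14 at their highest. B cell and plasma cell markers summed to 43.4 CPM, against at most 25.9 CPM, with 7 of 10 at their highest. Those of monocytes and border macrophages summed to 21 CPM, against at most 16.6 CPM. Only 3 of these 8 were at their highest, so most of that list did not follow.

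Astrocyte markers summed to 1654 CPM in WT_induced replicate 6, against at most 1634 CPM elsewhere, with 2 of 7 at their highest. Mouse Trem2 stood at 9.32 CPM there, against at most 9.08 CPM elsewhere. Cortical excitatory neuron markers summed to 3369 CPM there, against 3425 to 3930 CPM in the other 5 WT_induced libraries. Other markers did not follow. Neutrophil markers summed to 0.41 CPM, red blood cell markers to 8.0 CPM, endothelial markers to 157 CPM and choroid plexus markers to 16.1 CPM in WT_induced replicate 6, none of them the highest of the 24 libraries. No microglial marker of the 14 passed in R47H_induced against WT_induced, where 5.8% of all genes were called. At that share few or none of 14 genes would be called. The part of these cells in the interferon response genes was not tested, and in bulk tissue more cells of a type and more RNA per cell cannot be told apart.

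Per kilobase of transcript, the genes covered a wide range of levels. The median over 24 libraries was 28.3 CPM per kb for Adar, 8.79 for Ifi27, 6.26 for Ifitm3 and 5.49 for Stat2. At the other end it was 0.0340 CPM per kb for Zbp1, 0.0362 for Oasl1 and 0.0715 for Ifi44.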

How the data were processed

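RNA of the cortex was taken up in Trizol, cleaned on columns with DNase, selected for poly-A and made into 1 library per mouse with a TruSeq kit (RNA, v2) that does not mark strand, per the labels' protocols. The authors deposited raw read counts, whole numbers that were not normalized, in 1 table. STAR 2.5.2b, featureCounts 1.5.1 and mm10 are named in the submitters' processing notes. How reads were assigned to strands and which annotation was used is not stated in the sources used here. Gene coordinates were copied from the count table, and promoters came from RefSeq (GRCm38.p6).

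Groups follow the labels for genotype and treatment. Counts were scaled by TMM and filtered by filterByExpr, and 1 robust quasi-likelihood fit over all 24 libraries (edgeR 4.0.16, R 4.3.3) gave 5 comparisons. P-values were adjusted by Benjamini-Hochberg over all tested genes of a comparison, and genes below 0.05 were called. Log2 CPM values per library use a prior count of 2. The procedure was tested on simulated data with known changes, the same spread in every group and no single high library. That test therefore does not show how the fit handles the unequal spread of these groups. As a check for duplicate libraries, counts of the 60 library pairs within groups were compared, and none agreed within sampling noise (chi-square per degree of freedom from 4.6 to 67.8). Total counts ran from 27933505 to 56082520, and this depth limits the precision of genes at a few counts.

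All 39 genes are named. Up to 3 tested genes per role have full statistics, those with the lowest p in R47H_induced against WT_induced, with any gene of opposite sign or called elsewhere, and the others are given by range. Genes of the other lists are named where they are among the 3 lowest p, or a ligand with a count. The single markers named were picked once their values had been seen. The genes and lists were chosen with earlier results of these data known. Alternatives were RLE or library-total scaling, other filters, DESeq2 1.42.0, limma-voom (limma 3.58.1) plain or weighted by sample, fits restricted to the groups compared, sex or the rRNA-like share as a covariate, a looser threshold (0.1) and the removal of each library in turn. Combinations with WT_induced replicate 6 left out were added after seeing the data.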

Additional observations from a re-analysis of the deposited data

Results flagged for a closer look

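Within groups of 6 libraries, the gap between the highest or lowest library and its neighbour was set against the group's whole range, for the 28 genes with full statistics and for the mean log2 CPM over the tested genes. In 33 of 116 groups this share was above Dixon's 95% critical value, where chance flags about 1 in 20 independent groups. The genes were measured in the same libraries, so the 116 are not independent and the 33 cannot be judged by that rate. All 33 were of single genes, and the mean log2 CPM was flagged in no group. In 23 of the 33 the library was WT_induced replicate 6, at the high end. Its share of the range was 0.851 for Ifi27l2a, 0.838 for Parp9, 0.825 for Irf9, 0.825 for Dhx58, 0.817 for Ifit2, 0.79 for Isg15, 0.785 for Parp14, 0.784 for Lgals3bp. It was 0.776 for Usp18, 0.769 for Irf7, 0.751 for Rtp4, 0.751 for Trim30a, 0.74 for Oasl2, 0.737 for Dtx3l, 0.715 for Ifit3, 0.707 for Sp100. It was 0.702 for Ifih1, 0.701 for Ddx58, 0.695 for Oas1a, 0.686 for Stat2, 0.641 for Ifi44, 0.634 for Ifitm3 and 0.633 for Ifit1.

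The other 10 came from 7 libraries of 3 groups. R47H_induced replicate 1 was high for Irf7 (0.797), Isg15 (0.674) and Trim30a (0.668), and replicate 5 of that group for Oas1a (0.687). R47H_induced replicate 4 was low for Irf9 (0.746), replicate 3 for Ifi35 (0.695) and replicate 2 for Ddx58 (0.65). WT_control replicate 6 was high for Ifitm3 (0.719) and Stat2 (0.668), and R47H_control replicate 2 for Lgals3bp (0.676). No more than 3 of these came from any 1 library.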

How the results depend on the processing

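In R47H_induced against WT_induced, 16 of 35 genes were called. The share of all genes called in the same fit stands in brackets, 5.8% for the 16. The count was 25 with DESeq2 (7.66%), 3 with limma-voom (5.56%), 7 with limma-voom and sample weights (6.27%), 7 with the rRNA-like share in the fit (5.25%) and 1 on the 12 libraries compared (4.35%). With WT_induced replicate 6 also left out it was 7 with limma-voom (4.87%), 9 with the rRNA-like share (4.92%) and 4 on the 11 libraries compared (4.36%). Leaving out each library in turn gave 6 (without R47H_induced replicate 3, 4.5%) to 26 (without WT_induced replicate 2, 5.27%). RLE scaling, library totals, sex, other filters and a threshold of 0.1 gave counts between 13 and 24. The share of all genes is not given for these, so they cannot be set against it. The 24 came with the threshold of 0.1, which is looser for every gene. Without a filter on low counts, the genes called included Cxcl10, Oasl1 and Zbp1, which the main fit did not test. The median log2 fold change stayed negative under every alternative run.

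Other medians moved with the rRNA-like share in the fit, to 0.23 in R47H_induced against R47H_control and to -0.53 in R47H_control against WT_control. In R47H_control against WT_control, 2 genes were called on its 12 libraries (Adar and Irf7) and 2 by limma-voom without WT_induced replicate 6 (Adar and Oas1a). The median difference of inductions was -0.12 with the rRNA-like share, -0.14 with it and without WT_induced replicate 6, -0.19 by limma-voom without that library, and -0.77 to -0.23 with each library left out in turn. The cause of these shifts was not tested.

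Stat2 reversed in R47H_induced against WT_induced. Its log2 fold change was 0.0052 with limma-voom and sample weights, and without WT_induced replicate 6 it was 0.0636 with DESeq2, 0.0741 with limma-voom, 0.0629 with the rRNA-like share and 0.064 on the 11 libraries compared. With each library left out in turn it ran from -0.18 to 0.0652. No paired analysis was possible because the labels give no replicate numbers, and libraries were numbered within each group only to name them. Counts over all libraries were lowest for Oasl1 (134), Oas1a (294), Mx1 (366) and Zbp1 (370), where counting error is largest.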
